A study of Mus musculus with 18 samples.

Results

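The comparison concerned the 9 control livers of a study of 3 mutant mouse lines. The 3 Nrf2 control livers carry the strain label C57BL/6, and the 6 others, 3 Nrf1 controls and 3 Keap1 controls, carry the label mixed. These 9 arrays were chosen by their labels out of 18. All mice were females aged 6 weeks, and total liver RNA was hybridised to single-colour Agilent arrays, 1 array per sample.

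The Nrf2 controls were Nrf2(+/+), and the mutants of that line, Nrf2 KO, were Nrf2(-/-) on the same strain. The Nrf1 controls were Nrf1(dN/+), and their mutants, Nrf1 CKO, were Nrf1(dN/-)::Alb-Cre, with Cre under the hepatocyte-active albumin promoter. The Keap1 controls were Keap1(Kd/+), and their mutants, Keap1 KD, were Keap1(Kd/-). C57BL/6 is an inbred strain, so its mice are nearly identical in sequence, whereas animals of a mixed background carry alleles of more than 1 strain. The composition of the mixed backgrounds is not given in the labels. Strain therefore cannot be told apart here from line, nor from the single dN or Kd allele that each mixed control carries. Whether a group's 3 samples came from 3 animals is not said in the labels, and p-values here measure sample spread that may be technical.

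Inbred strains differ in liver expression through variants in promoters, transcripts and whole gene clusters, and a control on another background brings those differences into any comparison with it. Mouse liver is known for strain differences in interferon-inducible genes of the Ifi200 cluster, in major urinary proteins and in genes of lipid and drug metabolism. The liver itself is mostly hepatocytes, wrapped in a thin mesothelial layer that the labels do not say was removed or kept.

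The arrays of the 2 strain labels hardly met on a slide. All 3 C57BL/6 controls were on slide 7, scanned on the fourth of 4 dates, with 1 mixed array, Keap1 Control 1. Keap1 Control 2 and 3 were on slides 3 and 4, scanned on the second date. The Nrf1 controls were on slides 1 and 2, scanned on the first date, which held only arrays of the Nrf1 line. Slide and date cannot be told apart from group in the comparison with the Nrf1 controls, and 1 array links the C57BL/6 controls to the Keap1 controls. On the 9 control arrays 51.3% to 65.0% of the measured spots were well above background. Correlations over 16933 genes ran from 0.984 to 0.988 between C57BL/6 arrays, from 0.981 to 0.989 between Nrf1 control arrays and from 0.973 to 0.982 between Keap1 control arrays. They ran from 0.945 to 0.962 between C57BL/6 and Nrf1 control arrays and from 0.963 to 0.977 between C57BL/6 and Keap1 control arrays, which overlaps the range within the Keap1 controls. Between Nrf1 and Keap1 control arrays, which share the label mixed, they ran from 0.954 to 0.970. The hepatocyte markers were present, with 8 of 9 passing the filter on background.

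Levels are log2 signals relative to the 75th percentile of the array, so that a level of 0 is that percentile and 1 unit is a doubling. A gene was called at a Benjamini-Hochberg adjusted p under 0.05 in limma's moderated test. The genes that define the 3 lines were read first. Nfe2l1, which encodes the transcription factor NRF1, had levels of 4.35, 4.48 and 4.27 in the C57BL/6 control livers, against 3.93, 3.65 and 3.59 in Nrf1 control livers and 4.56, 4.10 and 4.35 in Keap1 control livers. It was higher in the C57BL/6 controls than in the Nrf1 controls, which carry 1 dN allele, by 0.64 ± 0.17 (log2, SE, limma adjusted p = 0.011), with no overlap. Against the Keap1 controls the difference was 0.03 (adjusted p = 0.96). Keap1, the adaptor that targets NRF2 for degradation, had levels of 3.49, 4.41 and 4.40 in C57BL/6 controls, 3.80, 3.63 and 3.44 in Nrf1 controls and 4.47, 4.81 and 3.28 in Keap1 controls. These ranges overlapped, and the difference from the Keap1 controls, which carry 1 Kd allele, was -0.09 (adjusted p = 0.93). Nfe2l2, which encodes NRF2, had levels between 3.13 and 3.70 on all 9 control arrays and was called in neither comparison. These control levels do not check the group names. In mutants, mean levels were -6.44 (Nfe2l1, Nrf1 CKO), -4.88 (Nfe2l2, Nrf2 KO) and 1.80 (Keap1, Keap1 KD).

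Genes called against a single mixed group were many: 5002 of 16933 against the Nrf1 controls (29.5%) and 1231 against the Keap1 controls (7.27%). Against the Nrf1 controls 12.5% of genes were higher in C57BL/6 controls and 17% lower, and against the Keap1 controls 1.26% and 6.01%. The higher genes made up 17.3% of the calls against Keap1 controls, and 31.2% with arrays scaled to their median. The 2 mixed groups, compared with each other, gave 3266 calls (19.3%), with 9.96% of genes higher in Nrf1 controls and 9.33% lower. The higher genes made up 51.6% of these calls, and 63.7% under median scaling. Genes that differed from both mixed groups in the same direction numbered 926, or 5.47% of those tested. Of these, 79 were higher in C57BL/6 controls (0.467%) and 847 were lower (5%). Both comparisons share the C57BL/6 arrays, and these arrays chose the genes, so that the overlap of the groups and the medians given next follow largely from the choice and are a description. The 3 C57BL/6 values lay above all 6 mixed values for each of the 79 higher genes, against 4.16% of all genes, and below them for 832 of the 847 lower genes, against 8.56%. The higher genes had a median log2 difference of 1.01 from the Nrf1 controls and of 0.91 from the Keap1 controls. For the lower genes these medians were -1.88 and -1.63, while the medians over all genes were -0.04 and 0.01.

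The higher and lower genes were of different kinds. A gene symbol was known for 69 of the 79 higher genes, but only for 93 of the 847 lower ones. The other 754 were array features known only by an accession, and 552 of the 847 bore an AK clone accession, the form given to full-length mouse cDNA clones. Such clones made up 12.3% of the genes tested and 65.2% of the lower genes. Many lower genes lay near background: 393 of them were above it on all 3 C57BL/6 arrays, 178 on some and 276 on none. Of the 79 higher genes, 68 were above background on all 9 control arrays.

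The 12 named higher genes, ranked by the smaller of their differences from the mixed groups, held 5 genes with roles in cell division, a grouping made after the values were seen. Of the 25 genes measured in the proliferation list, 0 were higher than in both groups. Kifc5b is a kinesin motor, Knl1 a kinetochore protein, Hmmr a spindle-associated hyaluronan receptor, Cdkn3 a phosphatase of the cell cycle and Smc2 a condensin subunit. Smc2 had levels of -1.20, -0.81 and -1.17 in C57BL/6 controls, -3.29, -3.13 and -3.26 in Nrf1 controls and -2.99, -2.59 and -2.01 in Keap1 controls. No mixed sample reached the lowest C57BL/6 one, and the differences were 2.16 ± 0.37 (limma adjusted p = 0.00059) and 1.47 ± 0.37 (adjusted p = 0.025). Cdkn3 had levels of -0.17, -0.22 and 1.24 in C57BL/6 controls, against -2.14, -1.94 and -0.42 in Nrf1 controls and -2.80, -2.26 and -1.46 in Keap1 controls. Nrf1 Control 3 came close to the lowest C57BL/6 value for Cdkn3. Kifc5b and Knl1 were above background on no Nrf1 control array, so they were at least 4.24-fold and 2.60-fold higher in C57BL/6 controls than there. Hmmr was above background on 1 of 3 arrays in each mixed group, so its log2 differences of 2.16 and 2.50 rest in part on values below background. All 5 calls depended on the setting. Of 32 alternative settings, Hmmr lost its call in 11, Knl1 in 8 and Kifc5b in 6. Of 33, Cdkn3 and Smc2 each lost it in 7. The calls of Hmmr, Knl1 and Smc2 were lost without any 1 of the C57BL/6 arrays. Between mutant livers, Hmmr and Cdkn3 were lower in Nrf2 KO than in Nrf1 CKO by -2.50 (limma adjusted p = 0.011) and -2.58 (adjusted p = 0.0037), and neither was called between Nrf2 KO and Keap1 KD.

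Other named higher genes had roles in secretion, transport and muscle. Mup6, a major urinary protein, carried the widest mean difference from the Keap1 controls of the 12, with levels of 3.54, 2.74 and 2.75 in C57BL/6 controls, 0.31, -0.67 and 1.08 in Nrf1 controls and 2.18, -3.66 and 0.10 in Keap1 controls. The Keap1 control values spread over more than 5 units, and the array on the same slide as the C57BL/6 samples was the highest of them, 0.83 below the C57BL/6 mean. Major urinary protein genes are near-identical copies, so a probe may also read its neighbours, and the Mup6 call was lost without any 1 of the C57BL/6 arrays. Of the 5 urinary protein genes measured, Mup5 was also called against the Keap1 controls (2.86, adjusted p = 0.025), but not against the Nrf1 controls (0.60, adjusted p = 0.58). Susd4, a complement regulator, had levels of 0.78, -0.96 and -0.24 in C57BL/6 controls, against -1.62, -2.13 and -2.04 in Nrf1 controls and -1.49, -1.78 and -2.71 in Keap1 controls. It kept its call under each of the 33 alternative settings that could be fitted against both mixed groups. Slide or scan date as a block is not among them. With slide as a block, Susd4 differed from the Keap1 controls by 1.35. Atp12a, a proton pump subunit, and Crxos, a homeobox gene, rose by 1.84 and 1.31 against the Nrf1 controls and by 2.12 and 1.72 against the Keap1 controls. Myl7, a myosin light chain known from heart atria, had levels of -0.12, -0.13 and -0.20 in C57BL/6 controls, against -1.99, -2.35 and -0.96 in Nrf1 controls and -1.78, -2.77 and -2.15 in Keap1 controls.

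**Figure D1:**
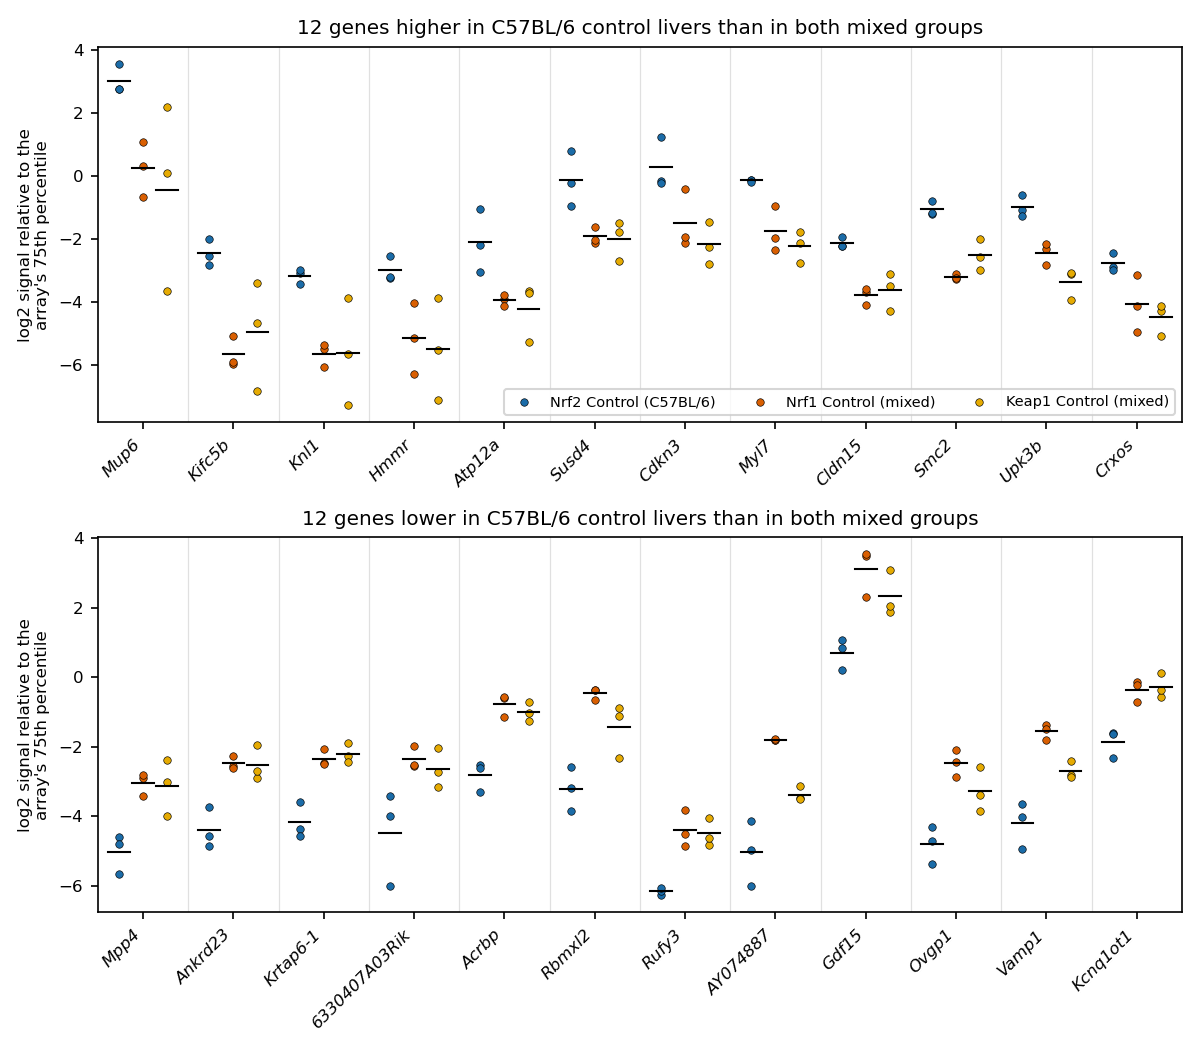
Each point is 1 control array and each bar a group mean, on an axis of log2 signal over the 75th percentile of the array; Nrf2 controls (C57BL/6) stand left of Nrf1 and Keap1 controls (both mixed) for each gene. The 3 C57BL/6 points lie above all 6 mixed points for the 12 genes of the upper panel and below them in the lower panel, and the widest scatter within a group is that of Mup6 in Keap1 controls.

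Several of the higher genes are known from mesothelium, the cell sheet that covers the liver surface. A list of 13 such genes was written after the values had been seen, so its counts are a description only and its part in any difference was not tested. Of the 9 that could be tested, 5 were higher than in both mixed groups, namely Msln, Upk3b, Upk1b, Rspo1 and Cldn15. Msln encodes the surface protein mesothelin. Its levels were 1.62, 0.75 and 1.22 in C57BL/6 controls, 0.19, -0.06 and 0.50 in Nrf1 controls and -0.66, -1.42 and -1.29 in Keap1 controls. The groups did not overlap, and Msln was higher by 0.98 ± 0.29 (limma adjusted p = 0.019) than in Nrf1 controls and by 2.32 ± 0.29 (adjusted p = 0.00044) than in Keap1 controls.

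Upk3b, a uroplakin that also marks mesothelial cells, had levels of -0.62, -1.09 and -1.27 in C57BL/6 controls, against -2.34, -2.82 and -2.17 in Nrf1 controls and -3.11, -3.93 and -3.08 in Keap1 controls. It was higher by 1.45 ± 0.32 (limma adjusted p = 0.0036) and by 2.38 ± 0.32 (adjusted p = 0.00073). Rspo1, a secreted amplifier of Wnt signalling, stood at 0.83, 0.23 and 0.32 in C57BL/6 controls, -0.54, -0.59 and -0.22 in Nrf1 controls and -1.71, -2.17 and -1.79 in Keap1 controls. All 3 C57BL/6 livers were above both mixed groups for Rspo1, and the Nrf1 controls in turn lay above the Keap1 controls. Upk1b rose by 1.19 and 1.78 and the tight-junction gene Cldn15 by 1.65 and 1.501, although Upk1b was above background on 2 of 3 Nrf1 and 1 of 3 Keap1 control arrays. Nkain4 was called against the Keap1 controls alone (1.71, adjusted p = 0.010, against 0.95 with adjusted p = 0.069 for the Nrf1 controls), and so was Gpm6a, a membrane glycoprotein (0.98, adjusted p = 0.043). Lrrn4 was called against the Nrf1 controls alone, where no array was above background, and was at least 2.22-fold higher in C57BL/6 controls. Krt19, a keratin shared with bile duct cells, was called in neither comparison (1.06 and 0.00).

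The defining mesothelial factors Wt1 and Bnc1 were above background on 0 of the 9 control arrays. The summed linear signal of the 9 genes was 5.54 to 9.31 times the array's 75th percentile in C57BL/6 controls, 2.97 to 3.92 in Nrf1 controls and 2.17 to 2.80 in Keap1 controls. In bulk tissue, fewer cells of a type and less RNA per cell cannot be told apart. Marker lists of other cell types held no gene that differed from both mixed groups, out of 44 markers measured in 9 lists. Of genes with a symbol 1.30% differed so, hence a count of 0 says little about these cell types. The sinusoidal endothelium sum was 56.0 to 73.5 in C57BL/6 controls, 38.0 to 45.7 in Nrf1 and 28.1 to 55.7 in Keap1 controls. It was 60.2 to 67.8 in Nrf2 KO, 26.5 to 45.9 in Nrf1 CKO and 22.4 to 41.1 in Keap1 KD livers. The stellate sum was 120.2 to 155.5 in C57BL/6 controls, 64.0 to 91.9 in Nrf1 and 107.3 to 120.1 in Keap1 controls, and overlapped between mutants. The other sums overlapped a mixed control group.

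The mutant livers bear the same strain labels. Their levels entered no difference between controls, but their arrays shared in the estimate of the spread, and the 9 control arrays alone gave 828 genes that differed from both mixed groups, against 926. Nrf2 KO livers are C57BL/6, and Nrf1 CKO and Keap1 KD livers are mixed, so differences there also include those of the mutations. Nrf2 KO and Keap1 KD arrays share slide 6 and scan dates 2 and 3. Their controls share slide 7 and scan date 4, through Keap1 Control 1 alone. Against Keap1 KD livers, 2.81% of all genes were called in Nrf2 KO livers, 1.16% higher and 1.65% lower. Of the 79 genes higher in C57BL/6 controls, 9 (11.4%) were called higher in Nrf2 KO than in Keap1 KD livers. Of the 847 lower genes, 5 (0.590%) were called lower. The median log2 difference of the 847 genes was -0.10 in that comparison and -0.01 over all genes. Against Nrf1 CKO livers 37.8% of all genes were called. There, 33 of the 79 (41.8%) were called higher, with 19.1% of all genes called so, and 622 of the 847 (73.4%) lower, with 18.6% of all genes called so. Both mutant comparisons called 11 of the 926 genes the same way, 7 higher and 4 lower, where 0.366% and 0.933% of all genes were called so in both, and 2 the other way.

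The 7 that were higher in all 4 comparisons included Msln, Upk3b, Upk1b, Rspo1 and Myl7. Msln had levels of 0.72, 1.21 and 1.02 in Nrf2 KO livers, 0.10, -0.22 and -0.52 in Nrf1 CKO livers and -0.37, -1.13 and -1.37 in Keap1 KD livers. It was higher in Nrf2 KO than in Keap1 KD livers by 1.94 ± 0.29 (limma adjusted p = 0.0019). Scan date 2 held 1 array of each group, Nrf2 KO 2 and Keap1 KD 3, on different slides. For Msln, Upk3b and Rspo1 these were the highest Nrf2 KO and the lowest Keap1 KD array. The Msln difference was 2.58 between them and 1.62 between the arrays of scan date 3. Upk3b was higher by 1.67 (adjusted p = 0.011), by 2.74 and by 1.14 within these dates, and Rspo1 by 1.87 (adjusted p = 0.0011), by 2.80 and by 1.41. The mesothelial sum was 4.50 to 8.71 in Nrf2 KO livers, 2.47 to 3.04 in Nrf1 CKO livers and 2.11 to 2.64 in Keap1 KD livers. The 9 genes called higher against Keap1 KD livers also included Dnmt3a, a DNA methyltransferase, and Meis2, a homeobox factor. For Dnmt3a, both other probes went the other way against Nrf1 controls, by -0.47 and -0.36, where the reported probe differed by 0.54.

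**Figure D2:**
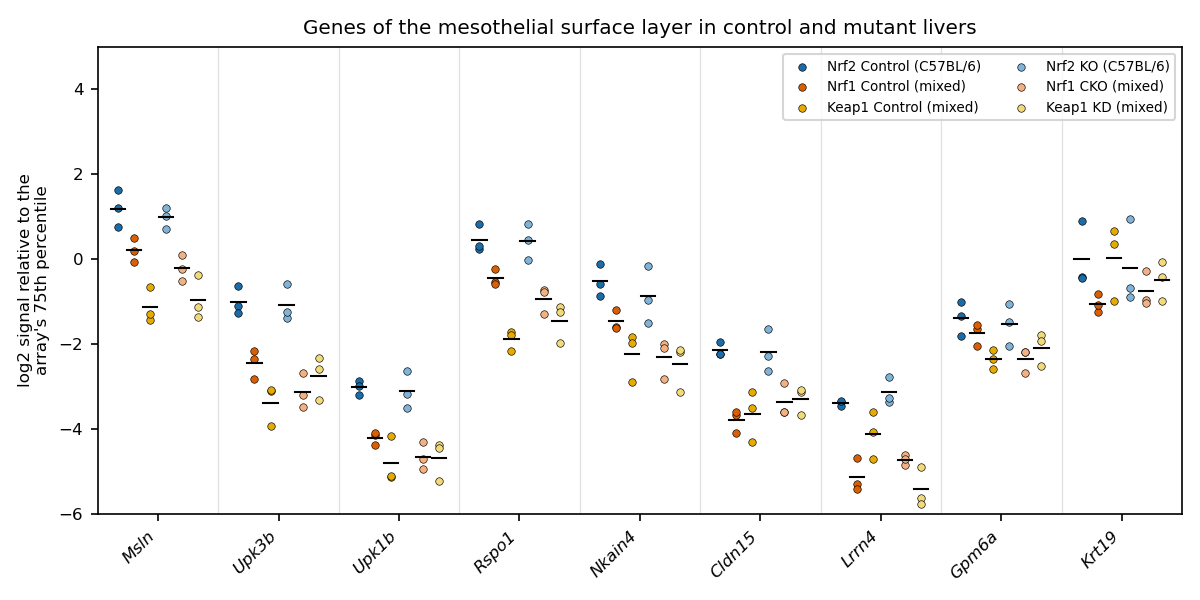
Each point is 1 array and each bar a group mean, on an axis of log2 signal over the 75th percentile of the array, for the 9 testable genes of a mesothelial list written after the values were seen. Control groups come first and mutant groups after them, and for Msln, Upk3b, Upk1b and Rspo1 the 6 arrays labelled C57BL/6 lie above the 12 labelled mixed.

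Promoter windows of 250 bases before the start of Upk3b are shown because this gene separated the strain labels on all 18 arrays, and those of Ifi202b because it was high on the 6 arrays of the Nrf1 line alone. They come from RefSeq on build GRCm38.p6, a genome of the C57BL/6J strain, so they show no mixed-strain allele. Capitals mark CATTCC, searched on both strands, the core bound by TEAD factors, and this motif occurs in 12.6% of 32841 promoter windows of the same length.
Upk3b: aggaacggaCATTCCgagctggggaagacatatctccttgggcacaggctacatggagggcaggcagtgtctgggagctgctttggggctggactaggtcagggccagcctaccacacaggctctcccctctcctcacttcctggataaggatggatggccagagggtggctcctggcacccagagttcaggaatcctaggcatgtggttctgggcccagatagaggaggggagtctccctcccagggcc
Ifi202b: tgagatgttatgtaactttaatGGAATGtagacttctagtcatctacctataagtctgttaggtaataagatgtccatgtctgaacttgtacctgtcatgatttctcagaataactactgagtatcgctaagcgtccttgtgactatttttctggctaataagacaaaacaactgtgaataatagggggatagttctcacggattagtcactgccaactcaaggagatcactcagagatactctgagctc
The Upk3b window is chr5:136038246-136038495 on the plus strand and the Ifi202b window is chr1:173982845-173983094 on the minus strand. The core of the interferon-stimulated response element, searched on both strands, is in 2.98% of the windows and in neither of these.

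The 4 genes lower in all 4 comparisons included Rapgef4 and Apbb3. Rapgef4, also called Epac2, is a cAMP-activated exchange factor. It had levels of -2.69, -3.06 and -3.04 in C57BL/6 controls, -1.35, -1.50 and -1.18 in Nrf1 controls and -1.89, -1.63 and -1.34 in Keap1 controls, and of -3.42, -3.04 and -3.65 in Nrf2 KO livers, -1.53, -2.24 and -1.98 in Nrf1 CKO livers and -2.09, -1.98 and -2.04 in Keap1 KD livers. The 6 C57BL/6 arrays were all below the 12 mixed ones for Rapgef4. Its difference was -1.31 ± 0.21 (limma adjusted p = 0.0014) from the Keap1 controls and -1.33 ± 0.21 (adjusted p = 0.0023) between Nrf2 KO and Keap1 KD livers. Apbb3, an adaptor that binds amyloid precursor protein, had levels of -0.08, -0.05 and 0.02 in C57BL/6 controls, 1.63, 1.54 and 1.26 in Nrf1 controls and 0.86, 0.55 and 0.84 in Keap1 controls. It was also lower in Nrf2 KO than in Keap1 KD livers, by -0.62 ± 0.15 (adjusted p = 0.034).

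Across all genes called in C57BL/6 controls against Keap1 controls, 29 of 1231 (2.36%) were called the same way in Nrf2 KO against Keap1 KD livers and 8 the opposite way. These were 23 of the 213 higher genes, where 1.16% of all genes were called higher between the mutants, and 6 of the 1018 lower genes, where 1.65% of all genes were called lower. Prss12, a serine protease, Nbl1, a secreted inhibitor of bone morphogenetic proteins, Cyp2s1, a cytochrome P450, and Sulf1, a sulfatase of heparan sulfate, were among the 23, with log2 differences of 1.88, 1.03, 1.24 and 1.90 between the controls and of 1.70, 1.34, 1.48 and 1.57 between the mutants. They were chosen after their values were seen. Ifi27l2b, an interferon-inducible gene, was among the 6, lower by -1.17 in C57BL/6 controls and by -1.56 in Nrf2 KO livers. For the Nrf1 line, 2746 of 5002 calls (54.9%) were called the same way in Nrf2 KO against Nrf1 CKO livers and 92 the opposite way. These were 1184 of the 2121 higher genes, where 19.1% of all genes were called higher between these mutants. The others were 1562 of the 2881 lower genes, where 18.6% of all genes were called lower. All 6 arrays of the Nrf1 line were scanned on 1 date, apart from all others, so the line cannot be told apart from that date.

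The clone-derived genes followed the strain label on the control arrays but not on the mutant arrays. Their median level per array was -3.23, -3.06 and -3.54 in C57BL/6 controls, -2.45, -2.42 and -2.41 in Nrf1 controls and -2.57, -2.55 and -2.18 in Keap1 controls. Keap1 Control 1, on the slide of the C57BL/6 samples, lay with its own group. In mutant livers the medians were -3.20, -3.21 and -3.29 in Nrf2 KO, -2.53, -2.69 and -2.68 in Nrf1 CKO and -3.32, -2.97 and -3.24 in Keap1 KD. Keap1 KD livers, labelled mixed, thus stood with the C57BL/6 groups. They also carry the mutation, and its part in their medians was not tested. Median levels of the 12423 genes with a symbol stayed between 0.53 and 0.69 on all 18 arrays. The part of this array-wide shift in the calls of single lower genes was not tested.

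**Figure D3:**
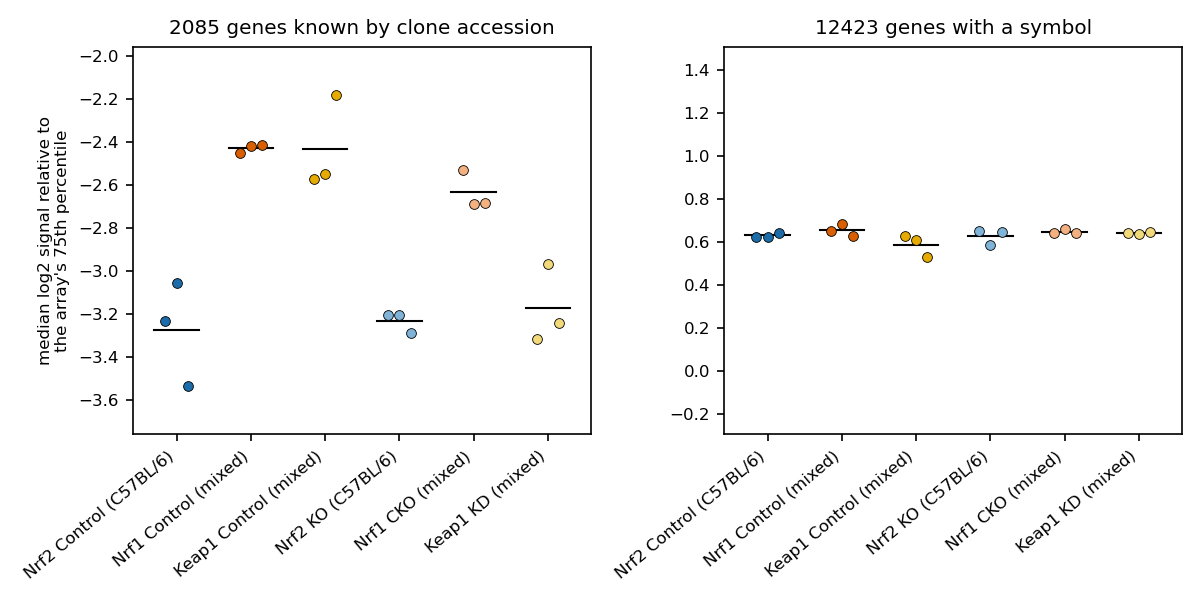
Each point is the median log2 signal of 1 array, over its 75th percentile, over 2085 genes known by AK clone accession (left) and 12423 genes with a symbol (right); bars are group means and both axes span the same number of units. Clone-derived genes were lowest in both C57BL/6 groups and in Keap1 KD livers, with the symbol-bearing genes level throughout.

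Some lower genes with a symbol were nuclear long RNAs or genes of splicing, a grouping made after the values were seen and with no list behind it. Neat1, another nuclear long RNA, was not among the lower genes: it was lower than in Nrf1 controls by -3.47 (limma adjusted p = 2.2e-05) but differed by -0.90 (adjusted p = 0.23) from Keap1 controls. Malat1, a nuclear long non-coding RNA, had levels of 3.56, 4.02 and 3.21 in C57BL/6 controls, 5.50, 5.65 and 5.07 in Nrf1 controls and 4.64, 4.83 and 4.30 in Keap1 controls. It was lower by -1.81 ± 0.24 (limma adjusted p = 8.2e-05) and -0.995 ± 0.24 (adjusted p = 0.019). Malat1 stood at 2.90, 3.41 and 2.80 in Keap1 KD livers, no higher than the 3.60, 3.66 and 3.22 of Nrf2 KO livers. Kcnq1ot1, an imprinted non-coding RNA, had levels of -1.60, -1.64 and -2.33 in C57BL/6 controls, -0.73, -0.14 and -0.22 in Nrf1 controls and -0.58, -0.37 and 0.12 in Keap1 controls, and fell to -2.22, -1.38 and -1.95 in Keap1 KD livers as well. Ccnl2, a cyclin of splicing speckles, was lower by -2.64 and -1.36, Ccnl1 by -1.04 and -0.74 and the splicing factor Hnrnph1 by -1.17 and -0.56. The non-coding RNAs Firre and Snhg8 fell by 2.14 and 1.96 against the Nrf1 controls and by 1.27 and 1.34 against the Keap1 controls. Another probe of Ccnl2 differed by -2.46 and -1.46. Other probes were weaker for Ccnl1, at -0.20 and -0.42, and for Snhg8, at -0.58 and -0.61, and these were not called in both comparisons. For Ccnl2 and Snhg8 the differences between Nrf2 KO and Keap1 KD livers were -0.09 (adjusted p = 0.87) and 0.09 (adjusted p = 0.90).

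Most of the 12 named lower genes were near background in C57BL/6 controls. Mpp4, a scaffold protein known from photoreceptors, was above background on no C57BL/6 array and was at least 2.33-fold lower there than in Nrf1 controls and at least 2.18-fold lower than in Keap1 controls. Ovgp1, an oviduct glycoprotein, was at least 3.33-fold and 1.90-fold lower. Rufy3 was also above background on no C57BL/6 array, and no fold is given because the bound came out under 1. Ankrd23, Krtap6-1, 6330407A03Rik and AY074887 were above background on 1 of 3 C57BL/6 arrays and Vamp1, a synaptic vesicle protein, on 2, so their differences, between -1.51 and -3.24, rest in part on values below it. Acrbp, a sperm protein, was measured on all 9 arrays, with levels of -2.54, -2.62 and -3.31 in C57BL/6 controls, -0.59, -0.57 and -1.14 in Nrf1 controls and -0.70, -1.04 and -1.26 in Keap1 controls. Rbmxl2, a splicing factor of germ cells, fell by 2.74 and 1.76. Gdf15, a stress-induced cytokine measured on all 9 arrays, had levels of 1.06, 0.21 and 0.84 in C57BL/6 controls, 3.49, 2.31 and 3.54 in Nrf1 controls and 1.87, 3.09 and 2.06 in Keap1 controls.

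Genes that respond within minutes to hours of a stimulus were also among the lower ones, again grouped after the fact. Dusp1, a phosphatase that switches off stress kinases, had levels of 1.51, 0.53 and 0.45 in C57BL/6 controls, against 3.15, 2.91 and 2.97 in Nrf1 controls and 2.40, 2.22 and 2.09 in Keap1 controls. It was lower by -2.18 ± 0.35 (limma adjusted p = 0.00034) and by -1.40 ± 0.35 (adjusted p = 0.022). Socs3, the feedback inhibitor of interleukin-6 signalling, fell by 0.84 and 1.06, Btg2, an antiproliferative p53 target, by 1.31 and 1.80 and Jun, a subunit of AP-1, by 1.08 and 0.71. Fkbp5, a glucocorticoid-induced chaperone of the glucocorticoid receptor, had levels of -0.55, 0.61 and -0.48 in C57BL/6 controls, 2.77, 2.77 and 2.53 in Nrf1 controls and 2.22, 0.44 and 2.26 in Keap1 controls, so that 1 Keap1 control overlapped the C57BL/6 range. Other probes of Fkbp5 differed by -1.30 and -0.08 from Nrf1 controls and by -1.235 and -0.93 from Keap1 controls, and neither was called in both. Between Nrf2 KO and Keap1 KD livers, Dusp1 differed by 0.80 (adjusted p = 0.26), Btg2 by 0.67 (adjusted p = 0.48) and Jun by 0.24 (adjusted p = 0.57), none of them called.

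In the cholesterol synthesis list, 9 of 25 measured genes were higher than in Nrf1 controls and 0 lower (12.5% and 17% of all genes), with a list median of 0.80. Against Keap1 controls 2 were higher and 0 lower (1.26% and 6.01% of all genes), with a median of 0.38. The medians over all genes were -0.04 and 0.01. Mvk, mevalonate kinase, was the member that differed from both, with levels of 0.98, 0.70 and 1.28 in C57BL/6 controls, -0.39, -0.85 and -1.34 in Nrf1 controls and 0.44, 0.21 and 0.12 in Keap1 controls. Its difference of 0.73 ± 0.21 from the Keap1 controls was near the threshold (limma adjusted p = 0.045) and the call was lost under 21 of 33 alternative settings. Fdps, farnesyl diphosphate synthase, had levels of 4.33, 4.09 and 5.10 in C57BL/6 controls and 2.36, 1.93 and 2.68 in Nrf1 controls, a difference of 2.18 ± 0.43 (adjusted p = 0.0014). Against Keap1 controls, at 4.80, 3.58 and 4.29, Fdps differed by 0.28 (adjusted p = 0.81).

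Mlxipl, which encodes the glucose-responsive factor ChREBP, was the single gene of 31 in the lipogenesis list to differ from both. Its levels were 3.98, 3.45 and 3.61 in C57BL/6 controls, 5.78, 5.62 and 5.75 in Nrf1 controls and 5.08, 4.83 and 4.78 in Keap1 controls. It was lower by -2.04 ± 0.26 (limma adjusted p = 5.6e-05) and -1.22 ± 0.26 (adjusted p = 0.0088). The call held under all 33 settings that could be fitted against both mixed groups. Slide as a block is not among these, and there Mlxipl differed from the Keap1 controls by -1.40. Between Nrf2 KO and Keap1 KD livers Mlxipl differed by -0.22 (adjusted p = 0.73).

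In the acute-phase list, 10 of 30 measured genes were lower than in Nrf1 controls and 0 higher (17% and 12.5% of all genes), with a median of -0.75. Only 1, Socs3, was lower than in Keap1 controls (6.01% of all genes), with a list median of -0.25. Crp, C-reactive protein, had levels of 0.60, 0.16 and 0.38 in C57BL/6 controls, 3.104, 1.72 and 3.33 in Nrf1 controls and 1.23, 1.11 and 1.11 in Keap1 controls. It was lower than in Nrf1 controls by -2.34 ± 0.40 (limma adjusted p = 0.00056), and the difference from Keap1 controls was -0.77 (adjusted p = 0.33). Hpx, the haem carrier hemopexin, was lower by -1.22 (adjusted p = 0.00012) than in Nrf1 controls. In the proliferation list the order was the reverse, with 9 of 25 genes higher than in Keap1 controls, where 1.26% of all genes were, and 1, Bub1, higher than in Nrf1 controls, where 12.5% were. Mki67, the proliferation antigen, had levels of 0.68, 0.80 and 0.84 in C57BL/6 controls, 0.01, 0.38 and 0.70 in Nrf1 controls and -2.06, -0.92 and -0.13 in Keap1 controls. It was higher than in Keap1 controls by 1.81 ± 0.38 (adjusted p = 0.0079), and the Keap1 array on the shared slide was the lowest. Birc5, survivin, was higher by 1.76 (adjusted p = 0.0068) than in Keap1 controls and differed by 0.77 (adjusted p = 0.13) from Nrf1 controls.

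**Figure D4:**
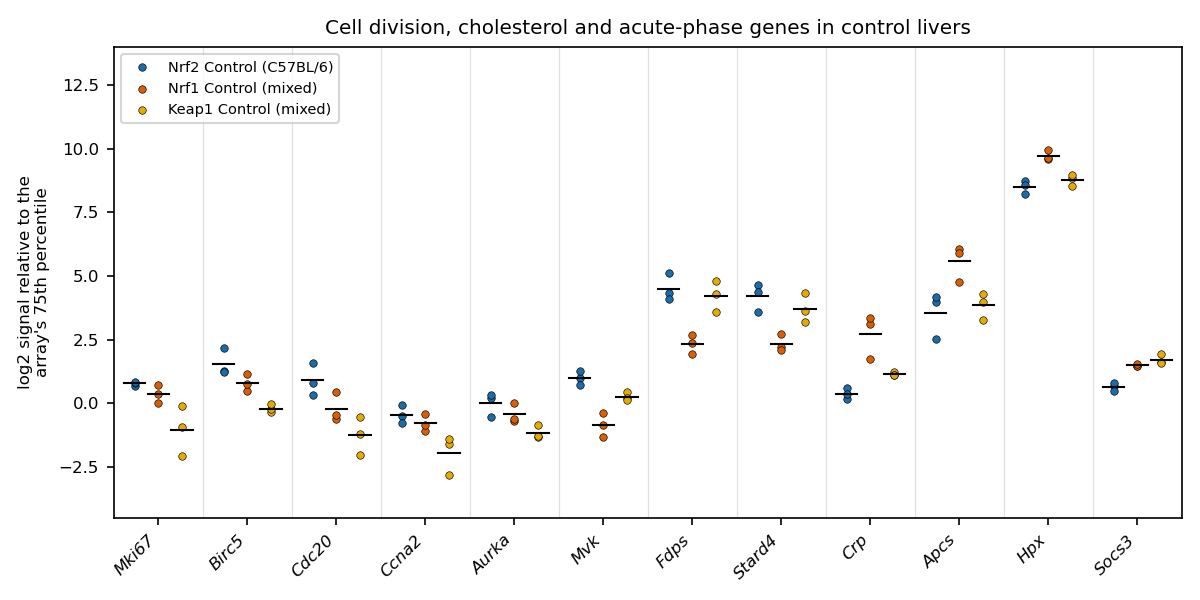
Each point is 1 control array and each bar a group mean, on an axis of log2 signal over the 75th percentile of the array, for genes of cell division (Mki67 to Aurka), cholesterol synthesis and transport (Mvk to Stard4) and the acute phase (Crp to Socs3). Cell division genes were lowest in Keap1 controls, whereas Fdps and Stard4 were lowest and Crp, Apcs and Hpx highest in Nrf1 controls, and Mvk and Socs3 were called against both mixed groups.

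Genes with sex-biased expression in mouse liver moved in part. Of 21 male-biased genes measured, 3 were higher than in both mixed groups, Susd4, Cyp2u1 and Nudt7, and 0 lower, where 0.467% and 5% of all genes were. Against Nrf1 controls alone, 3 were higher and 5 lower (12.5% and 17% of all genes). Against Keap1 controls 4 were higher and 0 lower (1.26% and 6.01% of all genes). Nudt7, a peroxisomal coenzyme A hydrolase, had levels of 7.89, 7.56 and 7.82 in C57BL/6 controls, 7.13, 6.80 and 6.16 in Nrf1 controls and 6.82, 5.66 and 6.41 in Keap1 controls. It was higher by 1.06 ± 0.29 (limma adjusted p = 0.013) and 1.46 ± 0.29 (adjusted p = 0.0060). Cyp2u1, a fatty acid hydroxylase, was higher by 1.10 and 1.27 and was the single gene of 42 in the list of drug-metabolising P450s to differ from both. Of 25 female-biased genes, 0 differed from both groups in the same direction. Against Nrf1 controls 6 were lower and 1 higher (17% and 12.5% of all genes), and against Keap1 controls 0 were lower and 1, A1bg, higher (6.01% and 1.26%). The 6 included Cyp17a1, a steroid hydroxylase, by -2.38 (adjusted p = 0.0023). Of 48 measured NRF2 target genes, 7 were higher and 3 lower than in Nrf1 controls, where 12.5% and 17% of all genes were. Against Keap1 controls 0 were called, where 1.26% of all genes were higher and 6.01% lower. The NRF2 target Nqo1, a quinone reductase, was lower by -0.80 (adjusted p = 0.022) than in Nrf1 controls and differed by -0.02 (adjusted p = 0.98) from Keap1 controls. In all, 9 of 42 gene lists with a measured member held a gene that differed from both mixed groups. Of genes with a symbol 1.30% differed so. How many lists would hold such a gene at that share was not computed, and nothing is read from the count.

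The list of genes known to differ between inbred strains held 6 measured genes, and none of them differed from both mixed groups. Ifi202b, an interferon-inducible gene of the Ifi200 cluster that is known to be expressed poorly in C57BL/6, was above background on 0 of 3 C57BL/6 arrays, 3 of 3 Nrf1 control arrays and 0 of 3 Keap1 control arrays. Its levels were -6.20, -6.67 and -6.57 in C57BL/6 controls, 1.38, 0.95 and 1.23 in Nrf1 controls and -7.37, -7.04 and -5.82 in Keap1 controls. It was at least 43.8-fold lower in C57BL/6 than in Nrf1 controls (limma adjusted p = 4.2e-08) and at least 72.7-fold higher in Nrf1 than in Keap1 controls. These bounds use, on each dim array, the lowest signal still above background. The mutants kept to their lines, with Ifi202b at 0.70, 1.92 and 1.07 in Nrf1 CKO livers and at least 58.0-fold lower in Nrf2 KO livers. The cluster neighbours Ifi204 and Ifi211 had no such step, with differences from Nrf1 controls of 0.36 (adjusted p = 0.32) and 0.94 (adjusted p = 0.026). Ifi205 was higher in C57BL/6 than in Nrf1 controls, by 1.93 (adjusted p = 0.0020), with 1 of 3 Nrf1 control arrays above background.

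The other 5 genes of that list differed less. Hc, complement C5, was lower than in Nrf1 controls by -0.62 (limma adjusted p = 0.011), and differed by -0.13 (adjusted p = 0.75) from Keap1 controls. Cox7a2l, a factor of respiratory supercomplexes, was higher than in Nrf1 controls by 0.39 (adjusted p = 0.035), with 0.02 (adjusted p = 0.97) for Keap1 controls. Glo1, glyoxalase 1, differed by 0.31 and 0.38, Casp4 by 0.30 and 0.37 and Alad, of haem synthesis, by 0.08 and 0.05, none of them called.

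Ifi202b was not alone in separating the mixed groups from each other. Wdr72 and Trhde, a peptidase that degrades thyrotropin-releasing hormone, were above background on all 3 Nrf1 control arrays and on 0 of 3 in each other control group, at least 17.4-fold and 12.8-fold higher than in Keap1 controls. Tatdn2, a DNA nuclease, had levels of 0.32, 1.68 and 1.54 in C57BL/6 controls, -4.33, -2.81 and -3.38 in Nrf1 controls and 0.77, 0.49 and 1.64 in Keap1 controls. Tatdn2 was as low in Nrf1 CKO livers, at -4.99, -4.70 and -5.22. Olfr668, an olfactory receptor gene, had the same order, with a difference of -3.79 ± 0.37 (limma adjusted p = 1.3e-05) between Nrf1 and Keap1 controls. Camk2b and Hebp2 were above background on no Nrf1 control array, at least 15.3-fold and 7.17-fold lower than in Keap1 controls, but stood at -1.96, -2.40 and -2.96 and at -0.94, -0.64 and -1.70 in Nrf1 CKO livers. Pde6c, a phosphodiesterase of cone photoreceptors, was at least 11.03-fold lower in Nrf1 than in Keap1 controls. Nlrp12 was split within the Nrf1 controls, at -6.30, -6.29 and 2.41.

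A1bg, Sult5a1 and Sult3a2, genes of sex-biased or sulfate-conjugating lists, completed the named genes between the mixed groups. A1bg had levels of -1.19, 2.56 and 1.96 in C57BL/6 controls, 5.25, 3.48 and 5.88 in Nrf1 controls and -3.51, -3.72 and -0.74 in Keap1 controls. C57BL/6 livers therefore lay between the mixed groups, lower than Nrf1 controls by -3.76 ± 1.05 (limma adjusted p = 0.014) and higher than Keap1 controls by 3.77 ± 1.05 (adjusted p = 0.041). Sult5a1 was higher in Nrf1 than in Keap1 controls by 4.32 and Sult3a2 by 6.32.

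**Figure D5:**
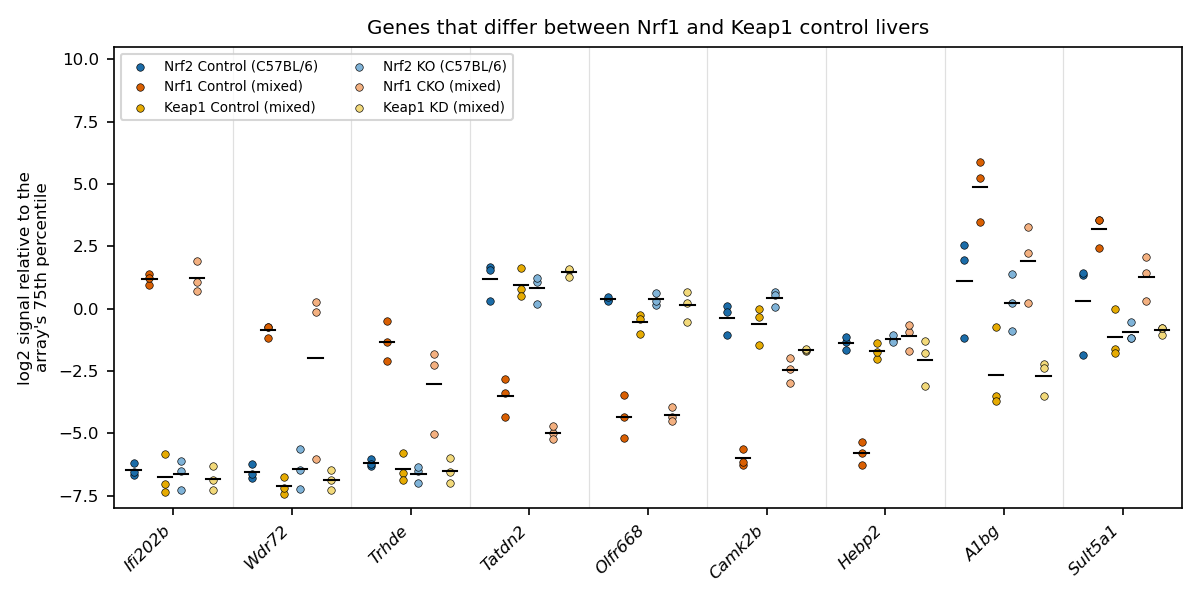
Each point is 1 array and each bar a group mean, on an axis of log2 signal over the 75th percentile of the array, for 9 genes that differ between Nrf1 and Keap1 controls, both labelled mixed. Ifi202b is high on all 6 arrays of the Nrf1 line and low on the 12 others, Tatdn2 and Olfr668 are the reverse, and Camk2b and Hebp2 are low in Nrf1 controls but not to the same depth in Nrf1 CKO livers.

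Genes next to the targeted loci Nfe2l1 and Keap1 were counted as well. Of the 50 tested genes nearest to Nfe2l1, 25 on each side in the order of the reference, 13 were called between C57BL/6 and Nrf1 controls, where 24.4% of the 12423 ordered genes were. Of the 50 nearest to Keap1, 2 were called between C57BL/6 and Keap1 controls, where 2.34% were. Both shares were near their background. Adjacent tested pairs could be sought only among the 69 higher and 93 lower genes with a symbol, since the others had no place in the order. The pairs were Clca3a1 with Clca3a2, both lower, and Kifc5b with Phf1, which moved in opposite directions. No background share was computed for such pairs, so nothing is read from their number.

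Within the shared slide, the 79 higher genes had a median difference of 0.83 between the C57BL/6 mean and Keap1 Control 1, and of 0.93 against the 2 Keap1 controls on other slides. For the 847 lower genes these medians were -1.47 and -1.70. All of these arrays entered the choice of the genes. With slide as a block, 0 genes were called between C57BL/6 and Keap1 controls, although 1651 (9.75%) had an unadjusted p under 0.05. In that fit 1 array, Keap1 Control 1, carried the whole Keap1 side. Whether the loss of calls came from this or from slide was not tested. Where a second probe existed for a gene with a symbol, 44 of 56 probes had the same direction as the reported probe in both comparisons and 12 were called in both. For Rufy3, the second probe differed by 0.32 from Nrf1 controls, opposite to the reported probe, and by -1.17 from Keap1 controls. Without Nrf2 Control 3, 34 genes were higher and 481 lower than in both mixed groups. Without Keap1 Control 2 or 3, the higher genes numbered 38 and 119, without Nrf2 Control 2 they numbered 46, and without Nrf1 Control 1 they numbered 51. With the AK clones left out before scaling and fitting, a setting added after the data were seen, 29 genes were higher and 262 lower.

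The difference between strain labels was compared between control and mutant arrays as well, by the test of C57BL/6 minus mixed in controls minus the same in mutants. This test carries line, allele and mutation along with strain. It was called for 2.73% of all genes, for 15 of the 79 higher genes and for 119 of the 847 lower ones. These genes were chosen for a large difference in controls, which raises their share, and nothing is read from it. For Susd4, one of them, the C57BL/6 minus mixed difference was larger in controls by 1.80 (limma adjusted p = 0.041).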

How the data were processed

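Per the file headers, images were read with Agilent Feature Extraction 10.7.3.1. The deposited intensities used are its processed signal, background-subtracted and detrended, with median signal and background intensities for 1 alternative; the deposited flags (other) gave background, saturation and outlier calls. The deposited series table equalled the processed signal at all 810324 entries. From these, log2 processed signal of non-control spots, outliers left out, was scaled to each array's 75th percentile, spots of a probe were averaged, and the test kept 22532 probes that passed background on every array of some control group, using the brightest probe per gene (16933 genes, 12423 with a symbol). A probe was above background where at least 50% of its spots were.

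The model, with 1 mean for each of 6 groups on 18 arrays, was fitted with limma 3.58.1 (R 4.3.3), leaving 12 residual and 3.25 prior degrees of freedom. The script was tested on simulated data. Named genes were the 12 highest and 12 lowest that differed from both mixed groups without overlap, ranked by the smaller difference, up to 4 members per list, the 3 targeted genes, the strain list, and the 6 highest and 6 lowest between Nrf1 and Keap1 controls. Members and lists were chosen with earlier results of these data known. Alternatives are given with the closing observations. The number of arrays limits precision. Names, gene order and promoter sequence came from reference tables on a build other than that of the headers.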

Additional observations from a re-analysis of the deposited data

Results flagged for a closer look

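The difference between strain labels, C57BL/6 minus the mean of both mixed groups, was compared between control arrays and mutant arrays for the named genes, with limma's test of the difference itself. It passed an adjusted p under 0.05 for 463 of 16933 genes (2.73%). Genes named for a large difference in controls are more likely to pass, so the values are a description. Among named genes it was larger in controls for Hmmr by 3.89 (adjusted p = 0.028), Cdkn3 by 3.07 (adjusted p = 0.041), Hebp2 by 2.01 (adjusted p = 0.038), Susd4 by 1.80 (adjusted p = 0.041) and Mvk by 1.39 (adjusted p = 0.013). For Ovgp1 the value was -2.44 (adjusted p = 0.012). The mutant arrays carry the effects of the mutations as well. From Nrf1 control to Nrf1 CKO livers, mean levels went from -5.16 to -2.01 for Hmmr and from -1.50 to 1.40 for Cdkn3. They went from -5.80 to -1.09 for Hebp2 and from -2.47 to -5.05 for Ovgp1. The part of these changes in the values above was not tested. The targeted genes also passed, with 8.45 for Nfe2l2, -5.00 for Nfe2l1 and -1.66 for Keap1, each of them altered by design in 1 mutant group.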

How the results depend on the processing

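Against 926 genes differing from both mixed groups (79 higher, 847 lower), 11 called likewise in the mutants, and 5002, 1231 and 3266 calls for C57BL/6 against Nrf1 controls, C57BL/6 against Keap1 controls and Nrf1 against Keap1 controls, the settings that moved a count by over 1.5 times were these. Scaling to the array median gave 155 higher. No background filter gave 49 higher, 2116 between the mixed groups and 6 in the mutants. Probes above background on all 9 arrays gave 418 (361 lower) and 562 against Keap1 controls, with fewer genes tested. Array quality weights gave 24 in the mutants. Normexp with quantile normalization gave 124 higher and 548 lower. The 9 arrays alone gave 50 higher and 2098 between the mixed groups. A minimum log2 difference of 1 gave 2689 against Nrf1 controls, 1462 between the mixed groups, 27 higher and 6 in the mutants. Leaving out AK clones, added after seeing the data, gave 291 (29 higher, 262 lower), 350 against Keap1 controls and 6 in the mutants. Slide as a block left 0 and scan date as a block 1 against Keap1 controls (1829 at an unadjusted p under 0.05); neither could be fitted against Nrf1 controls. Quantile normalization, the series table, outlier spots kept, the mean of probes, an intensity trend and slide as a random block moved none by over 1.5 times.

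The median of all genes against Keap1 controls was 0.18 under median scaling and 0.15 without a filter, against 0.01. The causes of these shifts were not tested.

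Leaving out 1 array at a time gave 515 to 1043 genes differing from both, 34 to 119 higher, 481 to 929 lower, 652 to 1393 against Keap1 controls, 3577 to 5377 against Nrf1 controls, 1927 to 3539 between the mixed groups and 6 to 17 in the mutants. Shifts over 1.5 times came without Nrf2 Control 3 (515 in all, 34 higher, 481 lower, 652), Keap1 Control 3 (119 higher, 17 in the mutants), Keap1 Control 2 (38 higher), Nrf2 Control 2 (46 higher), Nrf1 Control 1 (51 higher, 1927), Nrf1 Control 2 (1936), Nrf2 KO 1 (6) and Nrf2 KO 2 (7). For 30 genes differing from both groups (the 24 named by rank, with Btg2, Cyp2u1, Mlxipl, Mvk, Nudt7 and Socs3 from the lists), no value changed direction in 977 refits and 153 lost the call. These refits leave out slide and scan date as a block, which could not be fitted against Nrf1 controls.

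The replicate numbers did not pair the samples, with correlations of deviations between -0.28 and 0.20 over 9 same-numbered pairs. With the replicate number as a block, 933 genes (96 higher, 837 lower) differed from both, with 5141, 1244 and 3339 calls and 12 in the mutants.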
